A study of Mus musculus with 298 samples.

Results

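The respiratory chain genes are the genes whose protein products form the electron transport complexes and the ATP synthase of the inner mitochondrial membrane, together with the assembly factors of complex I. They were taken by symbol from the count table: every row starting with mt-Nd, mt-Co, mt-Cytb, mt-Atp, Nduf, Uqcr, Cox4i, Cox5, Cox6, Cox7, Cox8 or Atp5, and Sdha to Sdhd. The rule found 105 of 22800 genes. Of these, 13 lie on the mitochondrial genome (mt-) and 92 are nuclear. The nuclear genes were 38 of complex I, 7 assembly factors of complex I (Ndufaf symbols), 4 of complex II, 8 of complex III, 18 of complex IV and 17 of complex V. Atp5sl, counted under complex V by its symbol, is named Dmac2 in RefSeq and is a complex I assembly factor (29.6 CPM, counts per 1000000 reads, over all cells). The mt- genes were 7 of complex I, 1 of complex III, 3 of complex IV and 2 of complex V.

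Complexes I and II pass electrons from NADH and succinate to ubiquinone, complex III passes them to cytochrome c and complex IV to oxygen, and the proton gradient built on the way drives ATP synthesis by complex V. Complex II is built from nuclear products only, while the others combine subunits made inside the mitochondrion with subunits imported from the cytosol. Neurons depend on this pathway for the ATP that ion pumps consume, and neurons of the suprachiasmatic nucleus (SCN), the hypothalamic clock of mammals, change their firing between day and night.

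The samples were mouse SCN neurons whose firing was recorded by patch clamp in slices before the cytoplasm was drawn into the pipette and sequenced. The labels sort them by time of day (slices made near ZT0 for day and near ZT12 for night, after 12 h of light and 12 h of dark), by firing (active, silent or depolarized) and by cFOS label. By day the cells labelled cFOS+ numbered 51 active, 17 silent and 2 depolarized, and those labelled cFOS- numbered 27, 32 and 7. By night the numbers were 41, 35 and 3 cFOS+ and 46, 35 and 2 cFOS-. The labels give no strain, sex, age, animal or slice, so cells may share a slice or an animal, and they do not say how firing class and cFOS label were assigned. Each group was therefore treated as 1 sample, differences were not tested, and they describe these collections of cells only.

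The cells held 3187057 to 25535298 counted reads (median 6320667), and 2341 to 8420 genes had a read. A pair of night silent cells with opposite cFOS labels, S70 and S71, was nearly identical (correlation of log2 values 0.9995, against 0.696 for the next pair) and was counted as 1 cell without a cFOS label, which left 297 cells. All 297 cells had over 100 CPM summed over 12 neuron markers. Markers of microglia reached that level in 113 cells as well. Cells labelled cFOS+ had lower Fos transcript than cells labelled cFOS- (2005 against 2676 CPM), so the label is used here as a name and not as a measure of Fos.

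Some mt- genes have near-identical copies elsewhere in the genome, and their values have to be read with that in view. Stretches of the mitochondrial genome (chrM) also exist as copies on nuclear chromosomes, and reads from a copied stretch match both places. A block on chromosome 1 (chr1:24611535-24616197, minus strand, GRCm38) is annotated as a row of unprocessed pseudogenes and copies 7 mt- genes in whole or in part. The start of mt-Co2 and of mt-Co3, subunits of cytochrome c oxidase, are shown here as copied genes. The start of mt-Cytb (cytochrome b of complex III) and of mt-Nd1 (a core subunit of complex I) are shown as genes without a copied window. Only exact matches in annotated transcripts were sought, so copies elsewhere in the genome were not looked for. The stretch of mt-Nd4, another core subunit of complex I, holds the edge of the block. Capitals mark bases inside a 50-base window that occurs unchanged in another annotated transcript, and lower case marks bases outside such windows.
mt-Co2, chrM:7013-7102, plus strand: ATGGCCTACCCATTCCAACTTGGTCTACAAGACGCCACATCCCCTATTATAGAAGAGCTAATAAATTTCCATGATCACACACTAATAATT
mt-Co3, chrM:8607-8696, plus strand: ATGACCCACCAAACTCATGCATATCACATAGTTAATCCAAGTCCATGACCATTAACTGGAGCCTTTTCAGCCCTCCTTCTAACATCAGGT
mt-Cytb, chrM:14145-14234, plus strand: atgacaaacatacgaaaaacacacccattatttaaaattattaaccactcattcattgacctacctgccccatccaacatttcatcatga
mt-Nd1, chrM:2751-2840, plus strand: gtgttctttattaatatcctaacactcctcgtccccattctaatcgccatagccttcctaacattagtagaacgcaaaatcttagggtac
mt-Nd4, chrM:10983-11102, plus strand: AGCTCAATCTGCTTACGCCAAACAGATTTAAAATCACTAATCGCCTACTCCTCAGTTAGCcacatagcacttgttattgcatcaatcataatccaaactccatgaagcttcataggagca

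The mt- genes fell into a high and a low set that followed this map with 1 exception. All levels in this paragraph are CPM of the summed counts of the 297 cells per kilobase of exon. mt-Nd1 stood at 1569 and mt-Cytb at 1510, and none of their windows was copied. mt-Nd2, mt-Nd5 and mt-Nd6, further subunits of complex I with 0 to 8.2% of windows copied, stood at 372.9, 285.9 and 278.3. mt-Co1, the catalytic subunit of complex IV, and mt-Nd4 have 51.1% and 62.2% of windows copied and stood at 907 and 340.7. The 5 genes with at least 90% of windows copied (mt-Co2, mt-Co3, mt-Atp6, mt-Nd3 and mt-Nd4l) stood between 2.65 and 11.8. The exception was mt-Atp8, a small subunit of complex V at chrM:7766-7969. It stood at 10.1, and none of its windows was found in another annotated transcript. It lies between mt-Co2 and mt-Atp6, which are 230 bases apart on chrM. Their copies in the chromosome 1 block lie nearly the same distance apart, and no transcript is annotated between them. The search would have missed a copy of mt-Atp8 there, so whether this gene is copied was not tested. No source used here says how reads with more than 1 match were counted, and the part of this in the low levels was not tested.

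**Figure D1:**
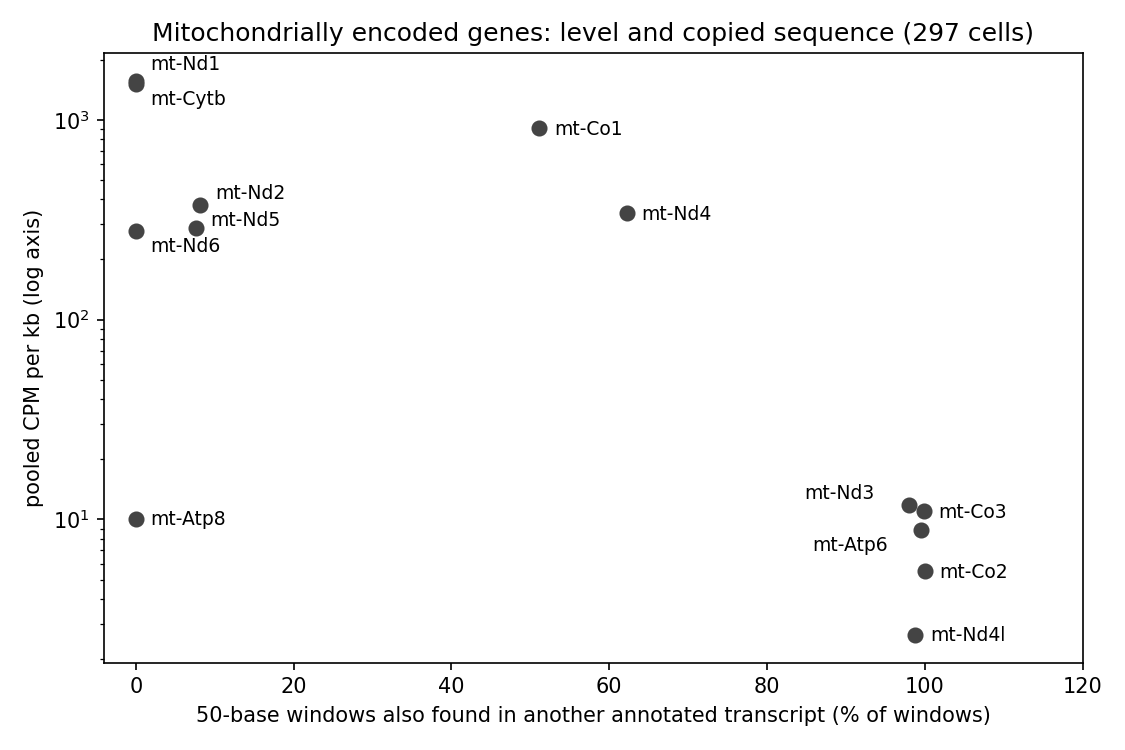
Level of each of the 13 mt- genes (vertical axis, pooled CPM per kilobase over 297 cells, log axis) against the percent of its 50-base windows that also occur in another annotated transcript (horizontal axis). Points are genes. The 5 genes at 98.0% or more lie between 2.65 and 11.8 CPM per kilobase, and mt-Atp8 is the gene at 0% that lies beside them at 10.1.

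The 7 abundant mt- genes carried 99.6% of the reads on mt- members, and each mt- sum in the text is in effect a sum over mt-Cytb, mt-Nd1, mt-Co1, mt-Nd5, mt-Nd4, mt-Nd2 and mt-Nd6. Their pooled levels were 1728, 1502, 1401, 521.4, 469.5, 387.1 and 144.4 CPM in that order, and their median cells were at 1029.9, 954, 833, 309.01, 261.8, 220.4 and 82.5 CPM. The 6 scarce genes ran from 0.786 CPM (mt-Nd4l) to 8.59 CPM (mt-Co3). The order of the 3 highest was not the same from cell to cell: mt-Cytb led them in 135 cells, mt-Nd1 in 93 and mt-Co1 in 69. Complex V had almost no mitochondrial reads in this table, 8.10 CPM for mt-Atp6 and mt-Atp8 together.

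Nuclear genes held 71.6% of all member reads and mt- genes 28.4%. Summed over the 297 cells, the 92 nuclear genes reached 15551 CPM and the 13 mt- genes 6179 CPM. Intervals from the counting of reads are narrow at this depth, so the spread between cells, and not the count, limits each comparison. By complex, the nuclear sums were 5579 CPM for complex I, 340 for its assembly factors, 1134 for complex II, 1525 for complex III, 2143 for complex IV and 4830 for complex V. The mt- sums were 3029 CPM for complex I, 1728 for complex III and 1414 for complex IV. Pooled, mt-Cytb thus had more reads than the 8 nuclear genes that the symbol rule took for complex III together. These 8 do not include Cyc1 (cytochrome c1), a subunit outside the rule, so the comparison covers only part of the nuclear subunits. In the median cell mt-Cytb was lower, at 1029.9 CPM beside 1369 CPM of these 8 genes. It was the higher of the pair in 114 of 297 cells. In complexes I and IV the nuclear genes were higher both pooled and in the median cell (4900 against 1895 CPM and 1956 against 843 CPM).

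In complex I the highest nuclear subunits included Ndufv2 (an iron-sulfur subunit of the NADH-oxidizing arm) at 327.2 CPM and Ndufb8 at 290.4. In complex II they were the flavoprotein Sdha at 584, the iron-sulfur subunit Sdhb at 283.5 and the membrane anchor Sdhd at 186 CPM. Among the complex III genes that the rule took, they were the core proteins Uqcrc1 and Uqcrc2 at 459 and 230 and the Rieske iron-sulfur protein Uqcrfs1 at 213. Complex IV was led by Cox4i1 at 556.6, Cox8a at 301 and Cox6c at 216. Complex V was led by the catalytic beta and alpha subunits Atp5b and Atp5a1 at 1321 and 1029 and by Atp5g3, a gene of the membrane ring, at 401.7. Per kilobase of exon, the median gene stood at 83.9 CPM in complex I, 134 in complex II, 122.4 in complex III, 64.2 in complex IV, 80.7 in complex V and 18.2 among the assembly factors.

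In complex IV the scarce paralogs of several subunits were close to 0. Cox4i1 stood at 556.6 CPM and Cox4i2 at 0.161, Cox8a at 301 and Cox8b at 0.123, Cox6b1 at 200 and the testis form Cox6b2 at 0.449, and Cox7a2 at 131 and the muscle form Cox7a1 at 0.899. Cox7a2l, a relative of Cox7a2 known for its part in joining complexes III and IV, was not scarce, with 100.2 CPM. Cox7b2 (0.658 CPM), Cox8c (0.0198) and Ndufa4l2 (0.0713) were as scarce beside Cox7b (121.8), Cox8a (301) and Ndufa4 (232.5). Cox6a2, the heart and muscle form of subunit VIa, was the highest of these scarce forms at 3.52 CPM beside 156.6 CPM of Cox6a1. It came from few cells: 14 of 297 had a read and 12 had at least 10 CPM. The highest, S202, had 391.2 CPM of Cox6a2 beside 410.1 CPM of Cox6a1. Among the 3 genes that encode the same ring protein of complex V, Atp5g3 stood at 401.7 CPM, Atp5g1 at 149.01 and Atp5g2 at 15.03. Every 50-base window of Atp5g2 and 65.996% of those of Atp5g1 occur in another annotated transcript, so their levels are uncertain. Of the nuclear genes with a transcript, 18 (Atp5g1 among them) had 10 to 90% of windows copied, with a median of 100 CPM, and 72 had under 10%, with a median of 137 CPM.

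The assembly factors were seen in fewer cells than the leading subunits. Ndufaf1 had a read in 41 of 297 cells and in 13.1% of cells thinned to 4210000 reads, Ndufaf6 in 75 and 24.3%, and Ndufaf7 in 141 and 46.8%. For comparison, Atp5b had a read in 292 cells and 98.5% of thinned cells, and mt-Cytb in 292 and 98.1%. For all genes at 5 to 50 CPM, where Ndufaf1 and Ndufaf6 lie, the median share of thinned cells was 19.5%. At 50 to 100 CPM, where Ndufaf7 lies, it was 41.6%. Pooled levels of the scarcer assembly factors therefore rest on few cells: 24.01 CPM for Ndufaf1 with a median cell at 0, against 979.8 CPM in its highest cell.

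Promoter sequence gives another feature that the choice by symbol did not use. RefSeq promoters (250 bases before to 50 after the gene start, GRCm38.p6) matched 76 members. The site of NRF1, a regulator of respiratory genes, was searched on both strands as the run of 10 letters in capitals that both sequences printed here share. It occurred in 7 of the 76 (9.21%) and in 0.977% of 27025 promoters of all genes. CCGGAAG, bound by ETS factors such as GABPA, occurred in 21.1% of member promoters and 9.12% of all, and AAGATGGCG, bound by YY1, in 9.21% and 1.49%. A match is a string of letters and not a measured binding site. The 250 bases before the start of Cox6a1 and Atp5k, a complex IV and a complex V gene that hold the NRF1 letters and the ETS letters in their promoter, are shown with the matches in this window in capitals. The NRF1 match starts 50 bases before the gene start in Atp5k. In Cox6a1 it lies further away, and the ETS letters, on the opposite strand, lie nearer the start.
Cox6a1, chr5:115348959-115349208, minus strand: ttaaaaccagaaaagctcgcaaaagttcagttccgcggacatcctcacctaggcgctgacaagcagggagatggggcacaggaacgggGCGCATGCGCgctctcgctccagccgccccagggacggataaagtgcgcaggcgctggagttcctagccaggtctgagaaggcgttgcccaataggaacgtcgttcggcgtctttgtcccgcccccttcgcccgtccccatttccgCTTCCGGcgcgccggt
Atp5k, chr5:108434400-108434649, minus strand: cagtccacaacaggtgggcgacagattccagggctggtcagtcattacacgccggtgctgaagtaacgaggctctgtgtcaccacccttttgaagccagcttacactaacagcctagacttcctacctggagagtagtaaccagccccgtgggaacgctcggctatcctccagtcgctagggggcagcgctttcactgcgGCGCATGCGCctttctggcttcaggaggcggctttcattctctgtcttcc

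Cells differed far more in mitochondrial than in nuclear respiratory transcripts. The nuclear sum per cell ran from 3345 to 51178 CPM with a median of 13947, and its upper quartile was 1.63 times the lower. The mt- sum ran from 0.331 to 92468 CPM with a median of 4065, and its upper quartile was 2.90 times the lower. The 10 cells with the most held 24.5% of all mt- reads but 11.0% of all nuclear member reads. Single cells thus weigh heavily in a pooled mt- value, and pooled mt- sums are best read beside their median cells.

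At the high end, 17 cells exceeded 20000 CPM of mt- transcripts and 16 had more mt- than nuclear transcript. The highest was S92, a day active cell labelled cFOS+, with 92468 CPM against 26555 CPM nuclear. It held 7.45% of all mt- reads, and it also had 12465 CPM of astrocyte markers, the highest value of any cell. S543 (night silent, cFOS+) followed with 47462 CPM, S411 (day active, cFOS-) with 45634 and S247 (night depolarized, cFOS-) with 40708. At the low end, 4 cells had under 100 CPM of mt- transcripts: S454 with 0.331, S87 with 0.476, S509 with 1.03 and S529 with 4.08. These 4 cells had 6641 to 10263 CPM of nuclear members and 3285 to 5870 CPM of neuron markers. Neuronal and nuclear respiratory RNA was thus read in them while RNA of the mt- members was nearly missing. They were cells with few genes read, 2383 to 3478, and with a read in 28 to 51 of the nuclear members. All mt- rows together held 0.00213 to 0.0199% of their reads. S509 and S529 also had 2552 and 887 CPM of microglia markers. All 4 cells carry the label cFOS-, and 3 of them are night active.

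**Figure D2:**
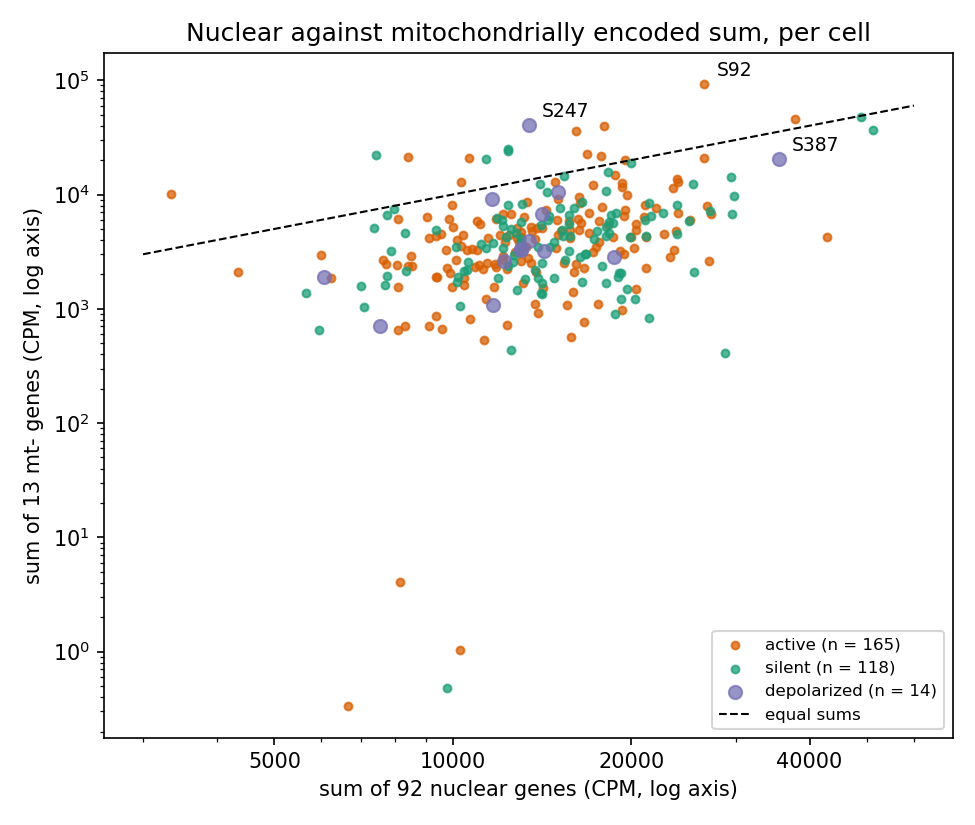
Each point is a cell, with the sum of the 92 nuclear genes on the horizontal axis and of the 13 mt- genes on the vertical axis, both in CPM on log axes, coloured by firing class. The dashed line marks equal sums: 16 cells lie above it, S92 highest at 92468 CPM of mt- transcripts, and 4 cells lie under 100 CPM.

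Nuclear and mt- sums were only loosely related. Across 297 cells the correlation of their log2 values was 0.35 (Pearson) and 0.37 (Spearman), and 0.37 and 0.38 when mt- reads were left out of the total on the nuclear side. The nuclear genes of complex I followed those of complex IV (0.71 and 0.72) and of complex V (0.68 and 0.71) more closely, and complex II followed the other complexes least (Pearson 0.30 to 0.44). Within the mitochondrial set, complex I followed mt-Cytb at 0.68 and 0.74. Summed neuron markers correlated with the nuclear sum at 0.37 and 0.41 and with the mt- sum at 0.04 and 0.08. Both sums of a cell share its read total, and these values are descriptions without a test.

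**Figure D3:**
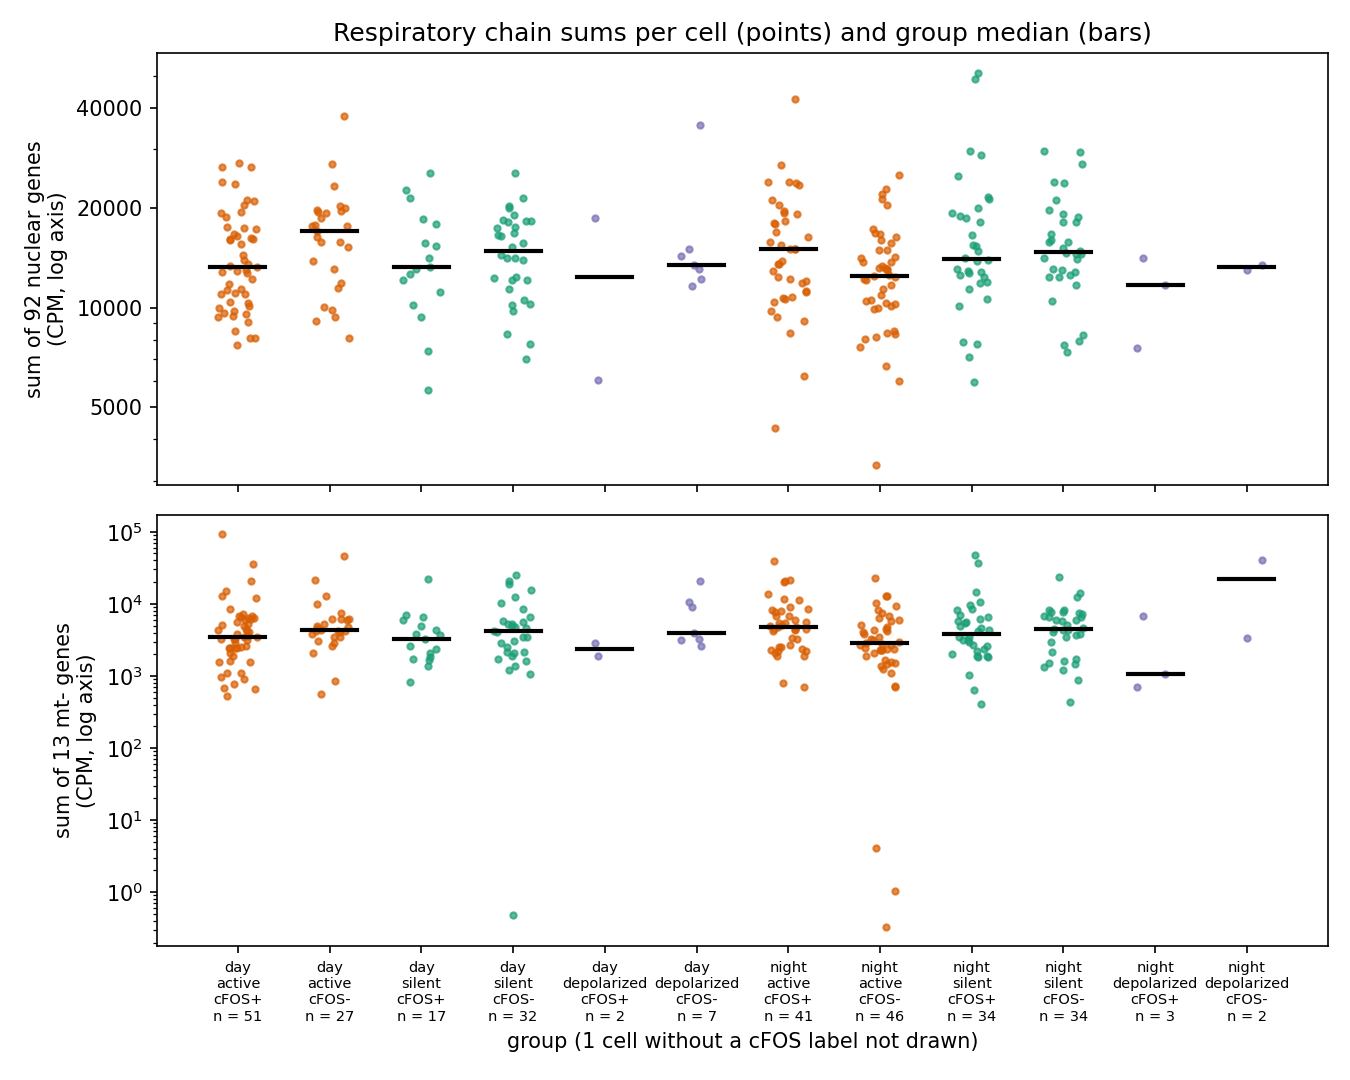
Sum of the 92 nuclear genes (top) and of the 13 mt- genes (bottom) in each cell, in CPM on log axes, for the 12 groups of time, firing and cFOS label. Points are cells and bars are group medians. The medians of the 8 active and silent groups lie between 12493 and 16990 CPM for nuclear genes and between 2825 and 4827 CPM for mt- genes, and cells of all 8 groups overlap.

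By time of day, nuclear respiratory transcripts were at nearly the same level. In 127 day cells (active and silent) the nuclear sum was 15409 CPM and in 156 night cells 15758 CPM, a log2 ratio of -0.03, with medians of 14373 and 13819 CPM over cells. Of 85 nuclear members measured (at least 5 CPM in 1 group), 32 were higher by day, 37.6% beside 47.8% of all genes, and the median log2 ratio was -0.03 for both. At 1.5-fold or more, 2 members were higher by day and 1 lower, where 14.6% and 17% of all genes passed. Of the 2, Cox6a2 (3.52 CPM over all cells) counted as measured only through the day cells, where it is higher. The ratio of the nuclear sum was 0.30 among active cFOS- cells and -0.09 to -0.21 in the other 3 combinations of firing and cFOS label. Complex by complex, 15 of 37 genes of complex I, 2 of 4 of complex II and 4 of 8 of complex III were higher by day. So were 4 of 12 of complex IV (Cox6a2 among the 4), 6 of 17 of complex V and 1 of 7 assembly factors.

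The mt- sum was 6608 CPM by day and 5646 CPM by night (log2 ratio 0.23), yet the median day cell was at 4024 and the median night cell at 4237 CPM. Of 9 mt- members measured, 8 were higher by day, with mt-Nd4 at 551.8 against 384.9 CPM (median cells 268.4 and 224.1) and mt-Co1 at 1605 against 1209 (904.7 and 777). The count was 3 of 9 without the single cell S92 and 2 of 9 without the cells with microglia markers. Among silent cells labelled cFOS+, 0 of 9 were higher by day and the sum had a log2 ratio of -0.58. All 11 microglia markers were higher by day (summed 1446 against 532.2 CPM, cells from 0 to 35397 and from 0 to 34761), and astrocyte markers summed to 758 against 356.9 CPM. Their part in the mt- difference was not tested beyond these values.

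Of 90 members with at least 20 CPM, 3 were higher and 6 lower by day in all 4 combinations of firing and cFOS label, pooled, as a mean over cells and without the highest cell of each group. That is 3.33% and 6.67%, where 6.29% and 8.3% of all genes at that level passed. Ndufaf7, a methyltransferase that acts during complex I assembly, was at 79.0 CPM by day and 49.3 by night (log2 0.67). Its median cell was at 0 in both groups, the highest cells had 1019 and 907 CPM, and without the cells with microglia markers its ratio was 1.34. Uqcrfs1 was at 243 against 192.02 CPM (log2 0.34), with median cells of 180.5 and 135.8, and Ndufa12 at 105 against 86.1 (0.28), with medians of 87.8 and 66.9. These medians lie in the same direction as the pooled values, while the cells of day and night overlap over nearly their whole range.

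On the other side, Ndufv2 was at 281.8 CPM by day and 366 by night (log2 -0.37), with median cells of 274.6 and 304 and ratios from -0.11 to -0.58 over the 4 combinations. Ndufaf6, an assembly factor, was at 21.4 against 36.8 CPM (-0.75), with a median of 0 in both groups. Ndufa6 was at 89.1 against 114 (-0.35), Ndufa10 at 210 against 249.1 (-0.25) and Atp5j, a stalk subunit of complex V, at 224 against 254.9 CPM (-0.18). The median day cell of Atp5j, at 207 CPM, was above the median night cell at 193. Ndufa10 changed direction, to a log2 ratio of 0.27, among the cells with lower numbers in the labels.

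By firing, the nuclear genes were slightly lower in active than in silent cells. The nuclear sum was 15110 CPM in 165 active and 16280 CPM in 118 silent cells (log2 ratio -0.11), with medians of 13528 and 14503. Of 85 nuclear members measured, 23 were higher in active cells, 27.1% beside 50.6% of all genes, and the median log2 ratio was -0.11 beside 0.01. At 1.5-fold or more, 3 were higher and 0 lower, where 15.9% and 14.4% of all genes passed, so the difference was small and spread over many members. Complex II had 0 of 4 genes higher in active cells, complex III 2 of 8, complex IV 1 of 12, complex V 6 of 17 and complex I 10 of 37, and 4 of the 7 assembly factors were higher. The difference was not shared by all cells: the ratio of the nuclear sum was 0.00 and 0.11 by day (cFOS+ and cFOS-) and -0.12 and -0.33 by night. Night cFOS- cells were lowest relative to their silent counterparts in complex IV (-0.61).

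The mt- genes did not follow the nuclear ones by firing. Their sum was 6324 CPM in active and 5735 CPM in silent cells (log2 0.14), with nearly equal medians of 4124 and 4145, and 9 of 10 measured mt- members were higher in active cells. The ratio was 0.83 in day cFOS+ cells, 0.14 in day cFOS- cells, 0.01 in night cFOS+ cells and -0.44 in night cFOS- cells. Without S92 the sum had a log2 ratio of -0.05 and 6 members were higher. mt-Cytb, for example, was at 1798 against 1501 CPM with medians of 1019 and 1008, and mt-Nd5 at 577 against 437.3 with medians of 340 and 284.3. Scarce mt- genes under 5 CPM over all cells, such as mt-Nd3 (4.12) and mt-Co2 (3.76), can count as measured only through the class where they are higher.

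By the same rule for firing, 1 of 90 members was higher in active cells and 10 were lower, where 7.4% and 6.83% of all genes passed. The gene that was higher, Ndufaf6, was at 38.7 CPM in active and 17.7 in silent cells (log2 1.09), with a median cell of 0 in both and highest cells of 490.4 and 224 CPM. Its ratios were 1.83 and 2.03 among cFOS- cells and 0.19 and 0.33 among cFOS+ cells, and 0.26 without the cells with microglia markers. Cox6a2 was also higher in all 4 combinations, as were 7.48% of all genes, but stood under 20 CPM in both classes (5.10 against 0.586). It counted as measured only through the active cells, where it is higher. The 10 cells with the most held 97.5% of its reads, so its direction rests on few cells.

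Among the 10 lower in active cells were Atp5l, a membrane subunit of complex V, at 19.3 against 28.2 CPM (-0.53), and Ndufv3, a small subunit of the NADH-oxidizing arm, at 74.9 against 107 (-0.50). Their median cells differed little, 13.6 against 14.2 CPM for Atp5l and 44.2 against 45.3 for Ndufv3. Cox7b of complex IV was at 106 against 143.7 CPM (-0.43, medians 75.2 and 110), the assembly factor Ndufaf3 at 70.9 against 93.6 (-0.40, medians 1.37 and 31.1), and Ndufa5 at 98.4 against 125 (-0.35, medians 70.6 and 101). For these 3 genes the median cells lay in the same direction as the pooled values. In Atp5l, 68.5% of windows occur in other transcripts, so its level is uncertain.

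**Figure D4:**
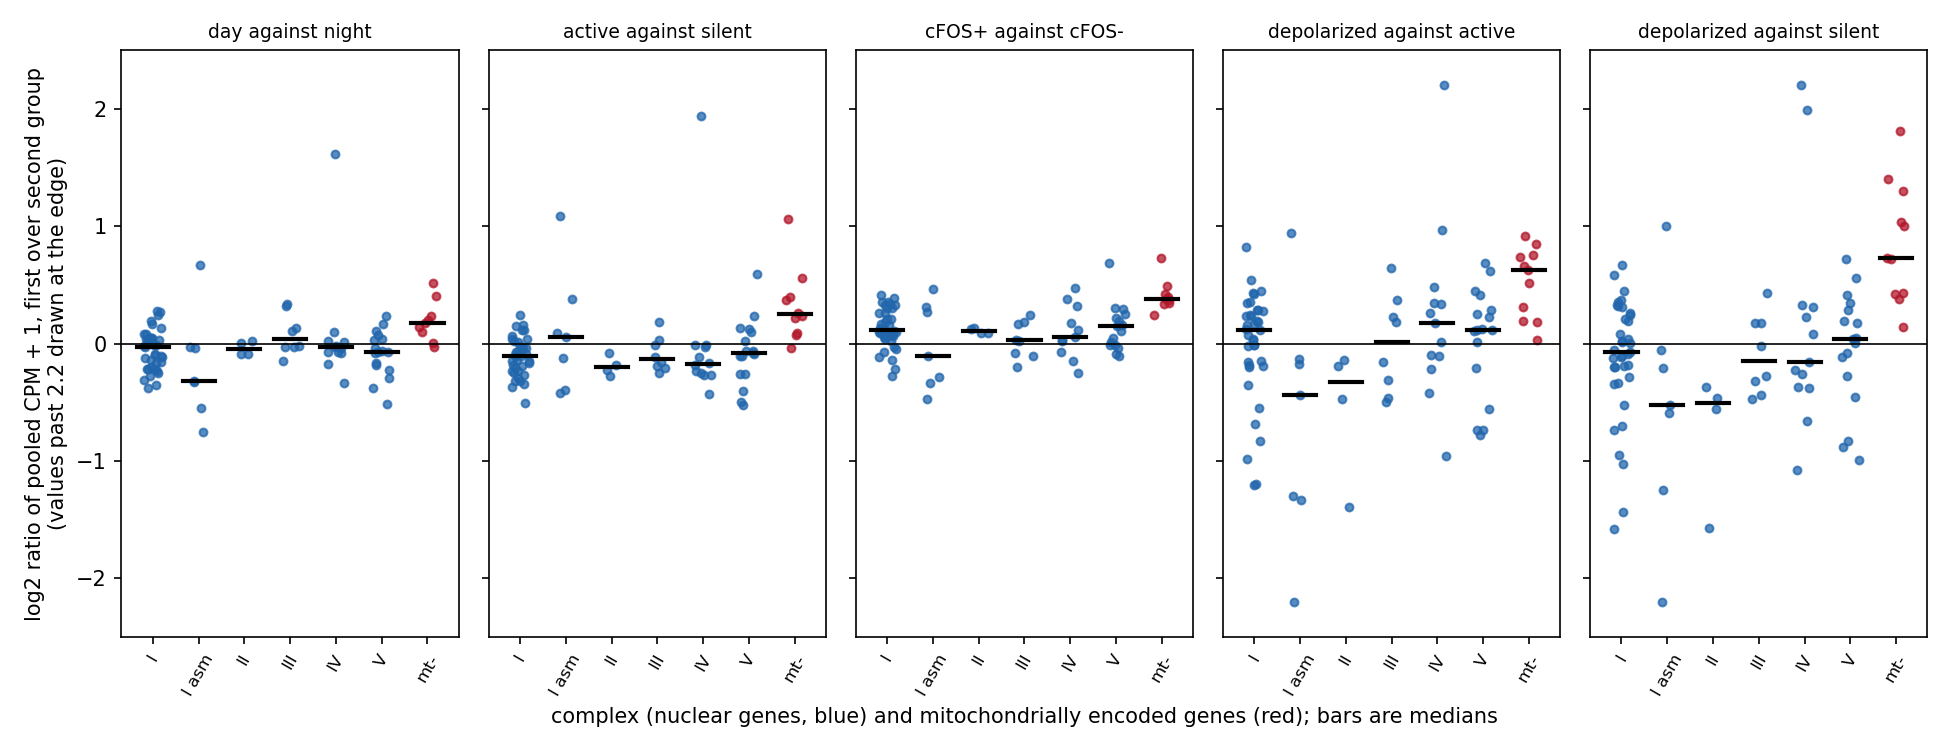
Log2 ratio of pooled CPM + 1 (vertical axis) of each measured member in 5 contrasts, by complex (nuclear genes blue, I asm for the assembly factors of complex I) and for mt- genes (red). Points are genes, bars are medians, and values past 2.2 are drawn at the edge. In active against silent cells 11 of 12 complex IV genes lie below 0. The point at 1.94 is Cox6a2, which counted as measured only through the active cells. In cFOS+ against cFOS- cells all 9 mt- genes lie above 0.

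By cFOS label, most respiratory genes of both genomes were higher in cells labelled cFOS+. The nuclear sum was 16170 CPM in 143 cFOS+ and 14991 CPM in 139 cFOS- cells (log2 ratio 0.11). Of 84 nuclear members measured, 62 were higher in cFOS+ cells, 73.8% beside 46.3% of all genes, and the median log2 ratio was 0.11 beside -0.04. Again few were far apart: 1 was at least 1.5-fold higher and 0 lower, where 12.5% and 17.8% of all genes passed. Complex I had 30 of 37 genes higher, complex II 4 of 4, complex III 5 of 8, complex IV 8 of 11 and complex V 12 of 17, while 3 of 7 assembly factors were higher. The difference did not show in the typical cell, whose nuclear sum was 13786 CPM in cFOS+ and 14148 CPM in cFOS- cells. Neuron markers were also higher in cFOS+ cells (10 of 12, summed 7195 against 6337 CPM, with median cells at 7078 and 6305), and so were the SCN peptides Vip (3759 against 1139 CPM) and Nms (546.7 against 255.3). Their part in the nuclear difference was not tested. The log2 ratio of the nuclear sum was 0.32 among night active cells, 0.10 among night silent, 0.03 among day silent and -0.08 among day active cells.

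For the mt- genes the cFOS+ cells had a sum of 6906 against 5284 CPM (log2 0.39), and 9 of 9 measured members were higher. The median cells were again close, 4171 and 4124 CPM. The ratio was 0.74 in night active, 0.32 in day active and 0.29 in night silent cells, and -0.36 in day silent cells, where 1 of 9 was higher. Without S92 the ratio was 0.19 with 9 of 9 still higher. Microglia markers went the other way (1 of 11 higher, summed 772 against 1123 CPM), and astrocyte markers were higher (597 against 481.7 CPM). mt-Nd5 was the measured mt- gene furthest apart, at 648 CPM (median cell 388.4, highest 6994) against 390.98 CPM (median 283.2, highest 2587). Its log2 ratio was 0.73, or 0.57 without S92, and it was the only mt- gene higher in all 4 combinations of time and firing (5.68% of all genes were).

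By the rule used for day and firing, 9 of 90 members were higher in cFOS+ cells and 4 lower, where 6.08% and 7.8% of all genes passed. The nuclear genes among those higher were led by Ndufaf3 at 93.8 against 67.8 CPM (log2 0.46, medians 15.4 and 0.95) and Ndufa4 at 266.6 against 199.6 (0.42, medians 213 and 163.1). Ndufa4 carries a complex I name but was later assigned to complex IV. With it, complex IV sums to 2489 against 2271 CPM (log2 0.13), and without it to 2222 against 2071 (0.10). Ndufa3 was at 84.0 against 65.6 CPM (0.35, medians 58.5 and 42.4) and Ndufs6, a zinc-binding subunit, at 93.7 against 76.0 (0.30, medians 62.8 and 47.1). For these 4 genes the median cell was also higher, unlike for the nuclear sum.

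Lower in cFOS+ cells were Ndufb6 at 104 against 127 CPM (log2 -0.28, medians 68.05 and 101), Ndufb11 at 131 against 153 (-0.22), Uqcrfs1 at 196.9 against 226 (-0.20) and Uqcrq, another subunit of complex III, at 148 against 160 (-0.11). The medians of Uqcrfs1 (166.03 and 166.8 CPM) and Uqcrq (129 and 127 CPM) hardly differed.

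Among the 14 depolarized cells the pooled nuclear level was close to that of active cells by day and lower by night. The nuclear sum was 14374 CPM beside 15110 in active and 16280 in silent cells, and the median cell was at 13230, 13528 and 14503 CPM. Within day, the 9 depolarized cells stood at 15757 CPM beside 15621 in active and 15083 in silent cells (log2 0.01 and 0.06). That depolarized sum includes the cell S387 at 35482 CPM. The median day cells were at 13426 CPM for depolarized, 14793 for active and 14148 for silent cells, so the depolarized median was the lowest. Within night, the 5 depolarized cells stood at 12274 CPM beside 14662 and 17151 (-0.26 and -0.48), with median cells at 13021, 13129 and 14582 CPM. At night 26 of 87 measured members were higher in depolarized than in silent cells, beside 37.6% of all genes. Of 86 nuclear members measured over all times, 47 were higher than in active cells (54.7%, beside 43.7% of all genes) and 37 higher than in silent cells (43.0%, beside 44%). Spread was wide with so few cells: at 1.5-fold or more, 7 members were higher and 13 lower than in active cells, where 23.7% and 36.5% of all genes passed. Against silent cells it was 5 and 15, where 25% and 37.1% passed. The count of 47 was 31 without S387, a day depolarized cell with 35482 CPM of nuclear members, and the count of 37 was 23.

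Complex II and the assembly factors were the nuclear sets that stood lowest in depolarized cells. The 4 genes of complex II summed to 783 CPM (95% interval 777 to 789, covering the counting of reads only), beside 1096 in active and 1222 in silent cells (log2 -0.49 and -0.64), and 0 of 4 were higher than in either. The median depolarized cell was at 767 CPM, against 940 and 1120. The distance was mostly that of the 5 night cells, at 483.9 CPM beside 1102 and 1225 (log2 -1.19 and -1.34), while the 9 day cells were at 979.8 CPM beside 1090 and 1219 (-0.15 and -0.31). The assembly factors summed to 253.3 CPM against 341.2 and 346.3, and 1 of 7 was higher. By day they were at 266.7 CPM beside 306.7 and 362 (-0.20 and -0.44), and by night at 232.8 beside 371.4 and 334.8 (-0.67 and -0.52). The classes overlapped: depolarized cells ran from 0 to 2264 CPM of complex II transcripts.

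Sdhd, a membrane anchor (chr9:50596357-50603812, minus strand, GRCm38), was the complex II gene furthest apart. It had over 10 CPM in 3 of the 14 depolarized cells, S349 with 443.8, S262 with 193 and S286 with 156 CPM, and stood at 0 to 0.349 CPM in the other 11. That is 21.4% of cells (exact Clopper-Pearson interval 4.66 to 50.8%), against 79 of 165 active cells (47.9%, 40.1 to 55.8%) and 65 of 118 silent cells (55.1%, 45.7 to 64.3%). Pooled, this was 68.5 CPM against 180.9 and 205.02 (log2 -1.39 and -1.57), and without S349 the ratios were -2.40 and -2.58. These 3 cells all had over 100 CPM of microglia markers, so that no depolarized cell below that level had more than 0.349 CPM of Sdhd. The interval for depolarized cells reaches into those of both other classes. All 3 intervals count cells as independent, though cells may share a slice or an animal, so they may be too narrow.

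The other 3 genes of complex II were nearer to the other cells. Sdha had over 10 CPM in 10 of 14 depolarized cells (71.4%), 77.0% of active and 85.6% of silent cells, with medians of 251.8, 433 and 582 CPM. Sdhb had it in 78.6%, 70.3% and 79.7%, with medians of 147, 189.6 and 255.6 CPM, and Sdhc in 42.9%, 50.9% and 61.9%, with medians of 0, 12.3 and 60.6 CPM. The order silent, active, depolarized held for the medians of Sdha, Sdhb, Sdhc and Sdhd alike, and the ranges of all 3 classes start at 0 and overlap.

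In complex I, subunits on the same path from NADH to ubiquinone differed in direction in depolarized cells. Ndufs8, an iron-sulfur subunit on the path to ubiquinone, was at 255.98 CPM against 145 in active and 160 in silent cells, with a median depolarized cell of 143 and a highest of 1177 (S395). Ndufs7, which carries the last iron-sulfur cluster before ubiquinone, was at 86.1 against 198.9 and 233.8 CPM. It had over 10 CPM in 7 of 14 depolarized cells against 70.3% of active and 71.2% of silent cells. Ndufv1, which binds NADH, was at 76.0 CPM against 229 in silent cells (log2 -1.58) and had over 10 CPM in 4 of 14 cells against 53.4%, with 710 CPM of it in S387 alone. Without S387 its log2 ratio was -2.93, among day cells alone it was -0.57, and without the cells with microglia markers -0.90. All 3 genes were at 0 in the lowest cell of every class, and their ranges overlap.

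Of the assembly factors, Ndufaf1 had no read in the 14 depolarized cells, against over 10 CPM in 17 of 165 active (10.3%) and 19 of 118 silent cells (16.1%). A count of 0 in 14 cells allows a share of up to 21.4% (3 of 14 cells), and the exact Clopper-Pearson interval reaches 23.2%. Both limits lie above the shares in active and silent cells. Both also count cells as independent, though cells may share a slice or an animal. No difference is therefore read from this count. Ndufaf5 was at 19.8 CPM beside 51.4 in active and 48.2 in silent cells, from S349 and S381 alone, and Ndufaf6 at 15.2 beside 38.7 in active cells, from S381 and S412 alone. Without S349 or without S381 the log2 ratio of Ndufaf5 to active cells was -2.39 or -1.98, and without S412 that of Ndufaf6 was -3.75, against -1.33 and -1.30 with all cells. These values came from day cells only, among which the log2 ratios to active cells were -0.16 for Ndufaf5 and -0.10 for Ndufaf6. Ndufaf2, a chaperone of late assembly, went the other way with 46.9 against 23.96 and 22.98 CPM and over 10 CPM in 6 of 14 cells, its highest value of 231.4 CPM being in S387.

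Of 90 members with at least 20 CPM, 24 were higher than in active cells and 36 lower when pooled, as a mean over cells and without the highest cell, where 23.7% and 49.5% of all genes passed. Against silent cells it was 19 and 46 of 89, where 25% and 49.2% passed. Further genes among those higher than in active cells were Atp5c1, the central stalk of complex V, at 476.4 against 294.995 CPM in active cells (log2 0.69, medians 320 and 248.02), Uqcrq at 224 against 143 (0.64, medians 150 and 129) and Atp5o, which ties the stalk to the catalytic head, at 278 against 203 (0.45, medians 246.8 and 151). Against silent cells they were Ndufab1, the mitochondrial acyl carrier protein, at 112 against 74.9 CPM (0.58, medians 75.1 and 50.3), and Atp5d at 335.1 against 264.2 (0.34, medians 297.1 and 207). In these 5 genes the median cell was higher as well. Because both contrasts share the 14 depolarized cells, they are not separate observations.

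The mt- sum of depolarized cells was 8541 CPM against 6324 in active and 5735 in silent cells (log2 0.43 and 0.57). In both contrasts 11 of 11 measured mt- members were higher. Scarce genes under 5 CPM over all cells, such as mt-Nd3 (4.12) and mt-Co2 (3.76), can count as measured only through the depolarized cells. The count is therefore no result about such genes. The 7 abundant mt- genes were all among those higher. The median depolarized cell had a lower mt- sum, 3311 against 4124 and 4145 CPM. The cell S247, with 40708 CPM of mt- transcripts and 20876 CPM of microglia markers, weighed most in the pooled value: without it the log2 ratios were -0.19 and -0.05, and 3 of 10 and 5 of 10 members were higher. Within day cells, the depolarized sum was 6791 CPM against 7425 in active and 5354 in silent cells, with median cells of 3256, 4149 and 3680. Within night cells, which hold S247, it was 11196 against 5358 and 6012, with median cells of 3366, 4065 and 4341. Microglia markers summed to 3220 CPM in depolarized cells (0 to 20876 over cells), 964 in active and 911 in silent cells, and all 11 were higher than in active cells. Their part in the other values of depolarized cells was not tested.

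mt-Cytb shows the spread behind these sums. It ran from 0 to 15435 CPM in depolarized cells with a median of 1194, from 0 to 29008 in active cells with a median of 1019, and from 0 to 13874 in silent cells with a median of 1008. Pooled, it was at 2997, 1798 and 1501 CPM. S247 with 15435 and S387 with 9584 CPM lay far above the other 12 depolarized cells, which ran from 0 to 2586 CPM. Without S247 the log2 ratio of mt-Cytb against silent cells was 0.29.

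**Figure D5:**
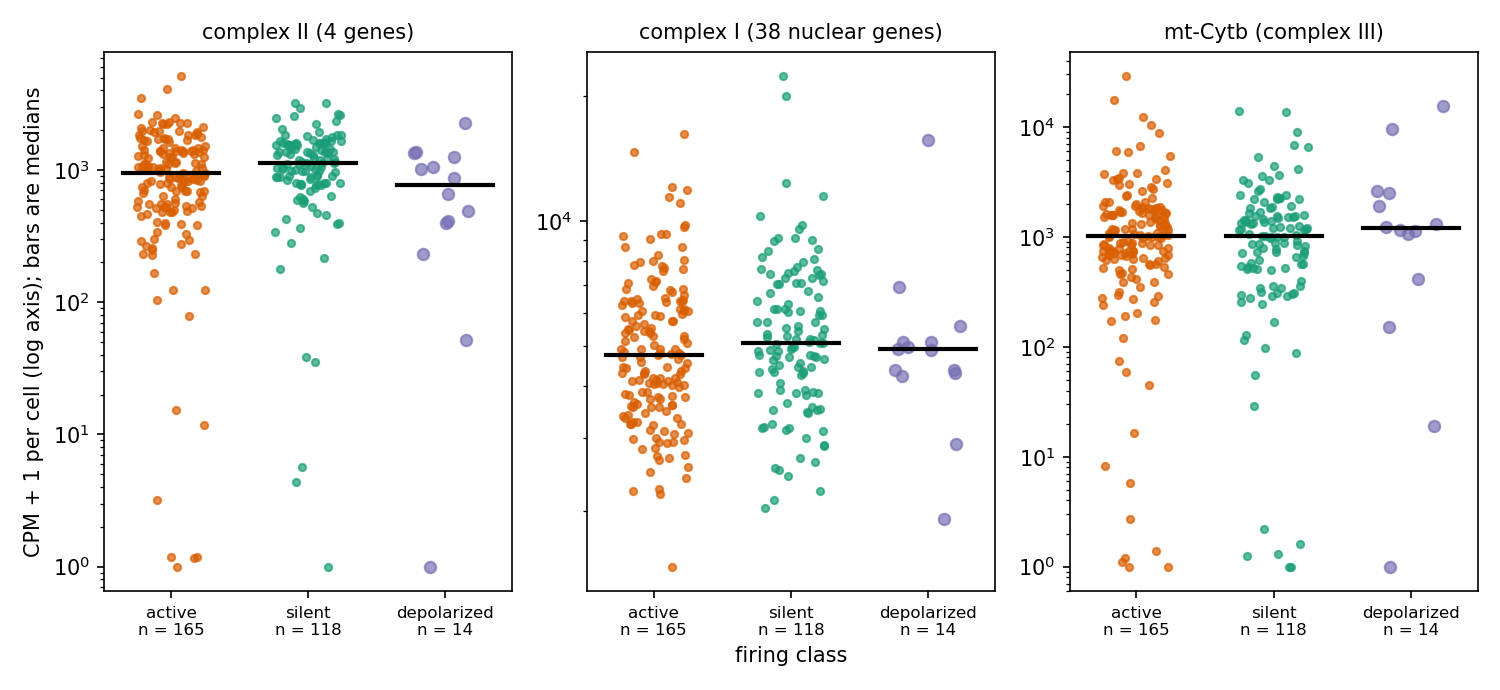
CPM + 1 per cell on log axes for the 4 complex II genes (left), the 38 nuclear complex I genes (middle) and mt-Cytb (right) in 165 active, 118 silent and 14 depolarized cells. Points are cells and bars are medians. The depolarized median is lowest of the 3 for complex II at 767 CPM and highest for mt-Cytb at 1194 CPM, and the classes overlap in every panel.

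Lists of genes that work beside the chain did not all lie on its side. In cFOS+ against cFOS- cells, where 46.3% of all genes were higher (median log2 ratio -0.04), 15 of 20 measured genes of glycolysis and lactate handling were higher (median 0.20). So were 16 of 26 of the citrate cycle and pyruvate entry (0.04), 9 of 12 of oxidant defence (0.18) and 6 of 9 nuclear regulators of respiratory genes (0.24). Mitochondrial DNA upkeep and transcription had 10 of 20 (-0.04), assembly factors outside the symbol rule 18 of 38 (-0.01) and inner membrane carriers 7 of 17 (-0.12). A list of cytochrome c, ubiquinone and related genes outside the rule had 8 of 17 (-0.15). That list holds Cycs, Cyc1, Atpif1, the Coq genes, Pdss1, Pdss2, Etfa, Etfb, Etfdh, Dhodh and Gpd2. Only Cyc1 among them is a subunit of a complex.

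In active against silent cells, where 50.6% of all genes were higher (median 0.01), carriers had 5 of 17 (-0.23) and oxidant defence 3 of 12 (-0.19). The cytochrome c and ubiquinone list had 6 of 17 (-0.11), outside assembly factors 16 of 37 (-0.13), citrate cycle 11 of 26 (-0.05) and DNA upkeep 9 of 20 (-0.25). Glycolysis had 11 of 20 (0.05) and the regulators 6 of 10 (0.11). By day, where 47.8% of all genes were higher (median -0.03), it was 7 of 20 for DNA upkeep (-0.28) and 2 of 9 for the regulators (-0.24). The citrate cycle had 10 of 26 (-0.14) and the cytochrome c and ubiquinone list 7 of 17 (-0.16). Outside assembly factors had 18 of 38 (-0.06) and glycolysis 10 of 20 (-0.01). Carriers had 11 of 17 (0.07) and oxidant defence 8 of 12 (0.19).

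In depolarized against silent cells, where 44% of all genes were higher (median -0.17), the count was 6 of 26 for the citrate cycle (-0.37). It was 8 of 38 for outside assembly factors (-0.60), 3 of 16 for carriers (-0.35) and 5 of 20 for DNA upkeep (-0.68). The cytochrome c and ubiquinone list had 5 of 17 (-0.35). Glycolysis had 9 of 20 (-0.03), oxidant defence 6 of 12 (-0.08) and the regulators 7 of 10 (0.81). All of these are counts and medians without a test.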

How the data were processed

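Single neurons were collected by patch pipette and sequenced from Nextera XT libraries, per the labels' protocols. The authors deposited whole-number read counts per gene and cell, and a table of normalized signal values. In all 298 columns the deposited signal equals the counts divided by 1 factor per cell (relative tolerance 1e-06). STAR, DESeq2 and the build GRCm38.p4 are named in the submitters' processing notes. The annotation, the counting tool and its treatment of strand and of reads with several matches are not given in those notes or in the labels. No molecular identifiers are described, so counts are reads and not molecules, and intervals cover counting error only.

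For each group the counts of its cells were added up and scaled to CPM. Log2 ratios used CPM + 1, a gene was measured at 5 CPM or more in 1 group, and 1.5-fold marked a large difference. Since the labels name no animal or slice, groups were compared without tests, and each contrast was repeated within its 4 combinations of the other labels. Depolarized cells, too few for that, were compared within day and night. Intervals are exact Poisson for sums and Clopper-Pearson for shares (95%). Those for shares count cells as independent, which the labels do not establish. To compare shares of cells holding a read, cells were thinned to 4210000 reads, which left out 30 shallower cells. Each library came from 1 pipette, and no doublet caller was run.

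Named genes were all mt- genes, the 3 highest nuclear genes of each complex, the listed isoforms, and per contrast up to 5 genes in each direction. A gene that this rule names is not reported here. The latter needed 20 CPM in 1 group and 1 direction pooled, as a mean over cells, without the highest cell and in all 4 combinations. The members, lists and markers were chosen with earlier results of these data known. Positions came from GENCODE M21 (GRCm38), which matched 104 of 105 members and is not the annotation behind the counts. Levels per kilobase used merged exons, and copied windows were sought among its transcripts. Promoters came from RefSeq (GRCm38.p6). Python 3.11.15 with numpy 2.4.6, pandas 2.3.3, scipy 1.17.1 and matplotlib 3.10.9 was used, and the calculations were checked on simulated data.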

Additional observations from a re-analysis of the deposited data

Results flagged for a closer look

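Among the 7 day depolarized cells labelled cFOS-, the cell S387 lay far above the other 6 in 6 quantities, with a gap to the next cell that, divided by the group's range, exceeded Dixon's 95% critical value for 7 samples. Its nuclear sum was 35482 CPM, with the next cell at 15039. Its nuclear complex I sum was 15662 CPM (next 5578), complex III 4369 (next 1554), complex IV 4809 (next 1960) and complex V 9403 (next 5426). Its mt-Cytb level was 9584 CPM (next 2586). The mt- sum of S387, 20520 CPM with the next cell at 10571, had a gap of 0.555 of the range and did not pass that limit. The cell had 0.174 CPM of microglia markers and 410.6 CPM of astrocyte markers. For each quantity, chance flags about 1 in 20 groups if values are spread normally, which was not checked for these CPM values. The limit was applied to the nuclear and mt- sums, their ratio and every complex sum, so a flag somewhere is more likely than that. The 6 quantities come from 1 cell and share its read total.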

How the results depend on the processing

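The number of nuclear members higher stayed within 1.5 times its value for time of day (29 to 46 of those measured), firing (19 to 34) and cFOS label (49 to 64) under every alternative run. That limit does not fix a direction. For time of day, the log2 ratio of the nuclear sum ran from -0.11 to 0.05 and changed sign in 1 of 16 alternatives. It kept its sign for firing (-0.17 to -0.05) and cFOS label (0.05 to 0.18). The number of mt- members higher in cFOS+ cells, 9, also stayed within 1.5 times (7 to 12). The other mt- counts moved. By day it was 8, and 3 with the authors' normalized table, 2 without cells with microglia markers, 4 without the top cell of each group, 1 among cells with higher numbers and 3 without S92, a setting chosen after seeing the data. In active against silent cells it was 9, and 2 among higher cell numbers. In depolarized against active cells it was 11, and 7 of 7 at 20 CPM or more, 4 without cells with microglia markers, 5 without the top cells and, chosen after seeing the data, 6 among day cells and 3 without S247. Leaving out 1 depolarized cell gave 3 to 11, and 31 to 49 for the 47 nuclear members. Against silent cells the 11 were 7, 4, 7 and 5 under the first 3 of these settings and without S247, leaving out 1 cell gave 5 to 11, and the 37 nuclear members were 23 to 40. No paired analysis was possible because no label pairs cells across groups. Thinning to 4210000 reads hardly moved the share of cells with a read of Ndufaf1 (13.8% to 13.1%) or Ndufaf6 (25.3% to 24.3%).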
